A study of Danio rerio with 24 samples.

Results

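The genes described here are 9 genes of glucose metabolism in whole zebrafish embryos: glucokinase (gck), the hexokinases hk1 and hk2, the glucose transporter gene slc2a2, the gluconeogenesis genes pck1, pck2 and fbp1b, and the hormone genes ins and gcga. They were taken by gene symbol from a count table of 37660 genes, each symbol matching 1 row. All 9 passed the filter on low counts that 27010 genes passed. They were chosen because gck was lower in KO than in WT embryos under DMSO, so the values of all 9 genes in that comparison are a description and carry no test here.

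Cells trap glucose by phosphorylating it, a step carried out by the hexokinases. Glucokinase is the hexokinase of hepatocytes and insulin-secreting beta cells, where it responds to the level of blood glucose, and slc2a2 encodes GLUT2, the transporter that brings glucose into the same cells. Gluconeogenesis runs in the opposite direction in the liver: phosphoenolpyruvate carboxykinase (pck1 in the cytosol, pck2 in mitochondria) and fructose-1,6-bisphosphatase (fbp1b) are among its enzymes, glucagon (gcga) raises it and insulin (ins) lowers it.

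The 24 RNA-seq libraries form 6 groups of 4, each library made from about 50 pooled embryos labelled as 3 days post fertilisation. The groups are KO embryos under DMSO, KO embryos at 3 h and at 24 h of 0.5 µM ML233, and WT embryos under the same 3 conditions. DMSO is the solvent control, with an ML233 concentration of 0 and a time of 0 h, so ML233 and the hours since the start cannot be told apart. ML233 is a small molecule known as an apelin receptor agonist. The KO label is not uniform: sample titles and the husbandry notes speak of apelin receptor mutants (aplnra and aplnrb, made with CRISPR guides in the AB strain), and the design text speaks of apelin mutants. Controls came from the same grandparents as the mutants, and the 4 libraries of a group are labelled as biological replicates.

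Library totals ran from 29.0 to 43.4 M counts. Among the labelled targets, aplnra was at 13.3–21.3 CPM (counts scaled to a common library total, with edgeR's cpm) in the 12 KO libraries and 23.3–25.8 CPM in the 12 WT libraries, aplnrb at 9.70–17.7 and 21.4–27.0 CPM, and apln at 82.9–95.2 and 95.5–111.6 CPM. An indel need not lower a transcript, so these levels do not check the alleles. In each group the 4 libraries fell into 2 pairs, read from how they deviated together from the group mean over genes outside the lists used below (r within pairs 0.111–0.704, highest r between pairs −0.495). In KO the pairs farther from the mean of the 12 WT libraries on the first principal component were replicates 2 and 4 under DMSO, 3 and 4 at 3 h, and 2 and 4 at 24 h. These 6 KO libraries, called the distant KO libraries below, had 9.70–12.4 CPM of aplnrb, against 16.1–17.7 CPM in the other 6 KO libraries. WT itself ran from −50.3 to 44.8 on that component. KO replicate 4 under DMSO (44.7) and KO replicate 3 at 3 h (35.9) lay within that range. In WT the pairs were replicates 1 and 2, and 3 and 4, under every condition. Over the same genes, the deviations of the distant KO libraries correlated positively with those of WT replicates 3 and 4 in 36 of 36 library pairs (median r 0.233) and negatively with those of WT replicates 1 and 2 (median r −0.290). The other KO libraries went with WT replicates 1 and 2 in 36 of 36 (median r 0.315). Deviations from a group mean cancel out over the group, so these opposite signs largely mirror each other and are not separate observations. The library pairs counted also reuse the same libraries. No label names these pairs. A fit with this split of the 24 libraries as a term, chosen after the data were seen, is called the fit with library pairs below. The split was read from these same libraries, so a smaller error and added calls in that fit are no independent support. WT values of the matching pair are given for some of the genes and lists. The 2 KO sets were read from the data, so values between them are described without a test.

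Glucokinase had the lowest log2 difference of KO over WT among the 9 genes under DMSO, at 3 h and at 24 h. In KO libraries gck had 5.84, 3.97, 5.94 and 5.46 CPM under DMSO (replicates 1 to 4), 20.6, 11.4, 5.93 and 8.52 CPM after 3 h of ML233, and 8.92, 10.5, 13.9 and 17.4 CPM after 24 h. In WT libraries gck had 19.1, 26.0, 11.5 and 10.2 CPM under DMSO, 26.9, 30.05, 19.0 and 17.0 CPM after 3 h, and 18.5, 22.3, 20.8 and 15.4 CPM after 24 h. Every KO library under DMSO was below every WT library under DMSO, as for 3.41% of all tested genes. At 3 h and at 24 h the genotypes overlapped. The choice of gck on the DMSO libraries favours separation there, so these conditions cannot be set against each other. The gene (ENSDARG00000068006) lies on chromosome 8 at 40476811–40490593 of the plus strand in the table, whose build the submitters' processing notes give as GRCz11. Its counts ran from 116 to 1019 per library.

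Under DMSO, gck averaged 5.30 ± 0.910 CPM in KO and 16.7 ± 7.34 CPM in WT embryos (SD, n = 4 each), a log2 difference of −1.65. Its adjusted p of 0.0498 in edgeR's quasi-likelihood test lay just inside the threshold of 0.05 that chose it. That value describes the choice and is no support for the difference. With any 1 of the 8 libraries left out it was 0.0542 to 0.181, and with RLE scaling 0.0516, so that call was lost in each of these fits. Under DMSO 0.148% of all tested genes passed, 0.104% higher and 0.0444% lower, and 10.7% had an unadjusted p under 0.05. The ML233 libraries are other libraries than those of the DMSO comparison. The genes were still chosen with earlier results of these data known, so tests in the ML233 libraries are no independent support. There gck averaged 11.6 ± 6.40 CPM in KO and 23.2 ± 6.24 CPM in WT at 3 h. At 24 h it averaged 12.7 ± 3.77 CPM in KO and 19.3 ± 3.03 CPM in WT. The log2 difference of KO over WT was −0.998 ± 0.326 (SE) at 3 h, with an adjusted p of 0.201 in edgeR, and −0.60 ± 0.32 at 24 h, with an adjusted p of 0.405. Neither passed the test. Averaged over both times, with 8 libraries per genotype, it was −0.80 ± 0.23 and passed (edgeR, adjusted p = 0.0368). With library pairs as a term it was −0.80 ± 0.19 over both times (edgeR, adjusted p = 0.00498) and −1.03 ± 0.26 at 3 h, where it then passed (edgeR, adjusted p = 0.0343). Many more of all tested genes passed in that fit too, as counted in the section on processing.

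The call of gck over both ML233 times, without that term, was not held by all libraries together. Leaving out 1 library at a time gave −1.02 to −0.69, and the call was lost in 9 of 16 such fits (edgeR, adjusted p between 0.00605 and 0.0877). The libraries whose removal ended it were WT replicates 1 and 2 at 3 h, WT replicates 1, 2 and 3 at 24 h, KO replicates 3 and 4 at 3 h, and KO replicates 1 and 2 at 24 h. Without the distant KO libraries the difference was −0.66, with an adjusted p of 0.212 in edgeR. That fit kept WT replicates 3 and 4, where gck had a median of 16.2 CPM over all conditions, against 24.2 CPM in replicates 1 and 2. It therefore does not compare matching pairs, for gck or any other gene. With the first 2 principal components as covariates the difference was −0.87 (edgeR, adjusted p = 0.142). These components come from the same libraries and can carry the genotype difference itself. Libraries of the 2 times are not fully independent samples. Same-numbered WT libraries at 3 h and 24 h deviated together (r 0.318 to 0.546), and in KO the same kinds of pairs recur under each condition. The fit over both times counts 8 libraries per genotype as independent, so its errors can be too small. That limit holds for every gene and list counted over both ML233 times.

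Between the library pairs gck differed by median, but the ranges overlapped in both genotypes. The distant KO libraries had 3.97–17.4 CPM with a median of 7.22, the other KO libraries 5.84–20.6 CPM with a median of 10.2, and the 12 WT libraries a median of 19.0. The WT libraries of replicates 1 and 2 had 18.5–30.05 CPM and those of replicates 3 and 4 had 10.2–20.8 CPM. The KO sets overlapped over most of their ranges. At 24 h the distant KO libraries had 10.5 and 17.4 CPM and the others 8.92 and 13.9 CPM, so there the distant ones were not the lower.

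**Figure D1:**
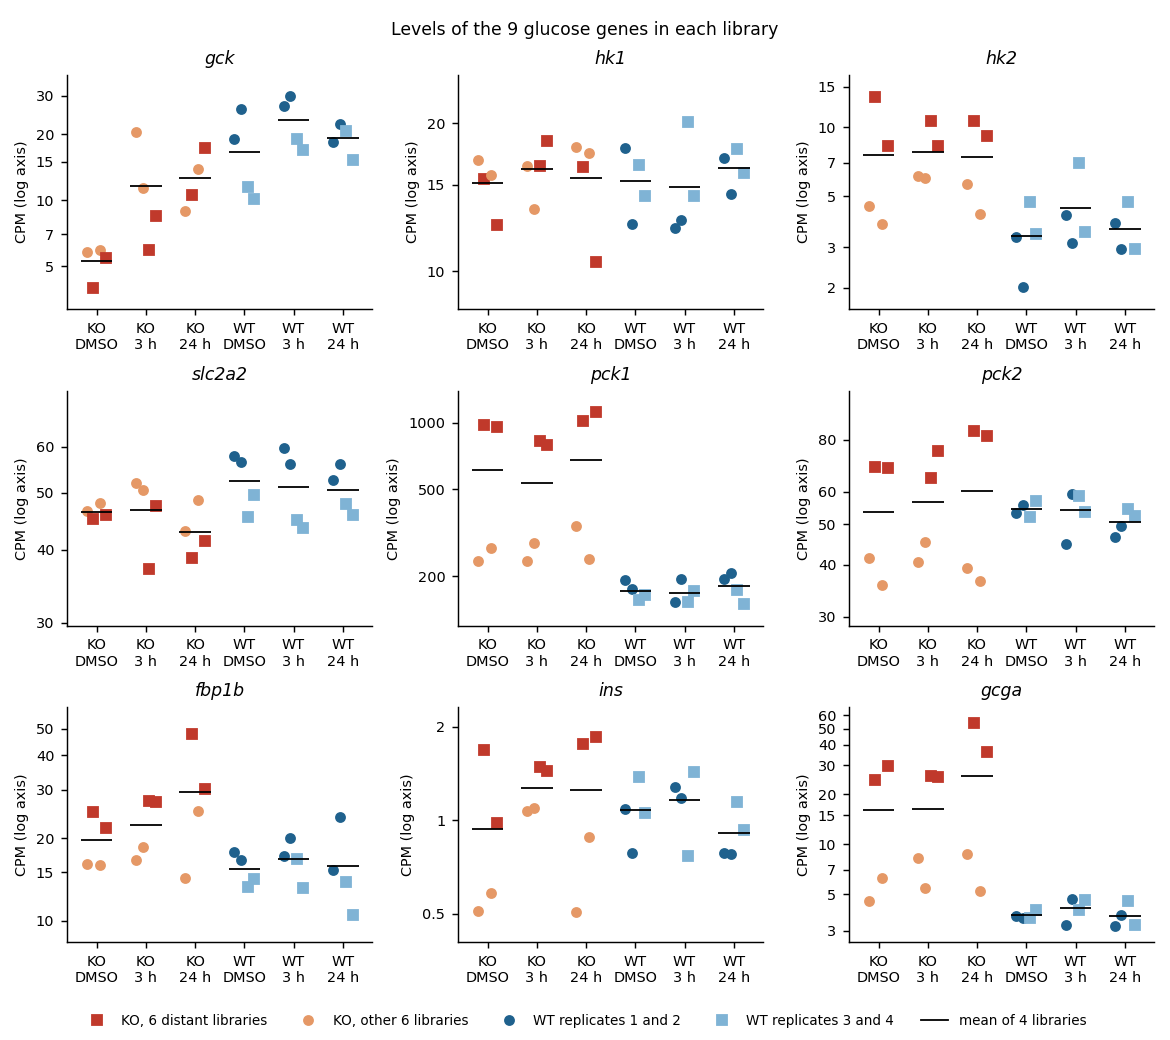
CPM (log axis) of the 9 genes in each of the 24 libraries, with the KO groups left of the WT groups and DMSO, 3 h and 24 h of ML233 in time order. Each point is 1 library and each line a group mean; in KO, gcga and pck1 split into a high and a low pair in every group, from 24.3–53.8 against 4.53–8.73 CPM for gcga, while in WT they lie close together.

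The other hexokinases did not share the lower level of gck. hk2 (ENSDARG00000101482, chromosome 5, 13870340–14004206), the isoform prominent in skeletal muscle of mammals, had 4.53, 13.6, 3.78 and 8.30 CPM in KO under DMSO, 6.12, 6.03, 10.6 and 8.31 CPM in KO at 3 h, and 5.67, 10.7, 4.20 and 9.15 CPM in KO at 24 h. In WT it had 3.32, 2.01, 4.70 and 3.43 CPM under DMSO, 4.12, 3.13, 6.99 and 3.50 CPM after 3 h, and 3.81, 2.95, 4.71 and 2.95 CPM after 24 h. The distant KO libraries, at 8.30–13.6 CPM, were above all WT libraries, and the other KO libraries, at 3.78–6.12 CPM, lay inside the WT range. Over both ML233 times hk2 was higher in KO, with a log2 difference of 0.92 ± 0.27 (edgeR, adjusted p = 0.0366). The call was lost in 10 of 16 fits that left out 1 library (WT replicates 1, 2 and 4 at either time, KO replicates 3 and 4 at 3 h, KO replicates 2 and 4 at 24 h), and without the distant KO libraries the difference was 0.44 (edgeR, adjusted p = 0.349). With the principal components as covariates it was 0.40 and did not pass.

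hk1 (ENSDARG00000039452, chromosome 13, 22972888–23007813), the hexokinase of most tissues, averaged between 15.1 and 16.1 CPM in the 3 KO groups and between 14.8 and 16.2 CPM in the 3 WT groups. Its log2 difference over both ML233 times was 0.03 ± 0.12 and did not pass (edgeR, adjusted p = 0.936). slc2a2 (ENSDARG00000056196, chromosome 2, 25816843–25837986) averaged 46.4 ± 1.255, 46.8 ± 6.79 and 42.9 ± 4.25 CPM in KO under DMSO, at 3 h and at 24 h, and 52.3 ± 5.85, 51.1 ± 8.07 and 50.6 ± 4.61 CPM in WT (SD, n = 4 each). The genotypes overlapped at both ML233 times. Its difference of −0.18 ± 0.08 did not pass the test (edgeR, adjusted p = 0.199), and with library pairs as a term it was −0.18 ± 0.05 and passed (edgeR, adjusted p = 0.0221).

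Among the gluconeogenesis genes, pck1 was higher in every KO library than in any WT library. pck1 (ENSDARG00000013522, chromosome 6, 60055168–60062097) had 236, 977, 271 and 958 CPM in KO under DMSO, 234, 285, 827 and 793 CPM in KO at 3 h, and 341, 1019, 241 and 1120 CPM in KO at 24 h. In WT it had 193, 176, 156 and 164 CPM under DMSO, 152, 194, 152 and 171 CPM after 3 h, and 195, 208, 174 and 149 CPM after 24 h. Across all 12 KO libraries against all 12 WT libraries it was the 1 member of 9 with no overlap, where 0.378% of tested genes lay wholly above WT and 0.222% wholly below. The KO values themselves form separate levels: 793–1120 CPM in the distant libraries and 234–341 CPM in the others, against 149–208 CPM in WT.

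The log2 difference of pck1, KO over WT, was 1.68 ± 0.49 at 3 h (edgeR, adjusted p = 0.155) and 1.91 ± 0.50 at 24 h (edgeR, adjusted p = 0.0825), so neither time passed alone. Over both times it was 1.79 ± 0.35 and passed (edgeR, adjusted p = 0.0048), and it passed in all 16 fits that left out 1 library, between 1.61 and 1.93. With the first 2 principal components as covariates it was 0.05 and did not pass (edgeR, adjusted p = 0.898). Computed over genes outside the lists, the second component was 1.67 to 45.6 in the KO libraries and −65.0 to 6.74 in WT. Adjusting for such components can take away the KO difference itself. With library pairs as a term the difference of pck1 was 1.53 ± 0.29 and passed (edgeR, adjusted p = 0.00122), and so it did at 24 h alone (1.62; edgeR, adjusted p = 0.0222). With the distant KO libraries left out it was 0.64 ± 0.11 and still passed (edgeR, adjusted p = 0.0065).

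pck2 (ENSDARG00000020956, chromosome 24, 12920019–12938922) was above WT in the distant KO libraries and mostly below it in the others. It had 41.6, 68.9, 35.7 and 68.3 CPM in KO under DMSO, 40.6, 45.5, 64.8 and 75.0 CPM in KO at 3 h, and 39.3, 83.8, 36.5 and 81.8 CPM in KO at 24 h. The 12 WT libraries ran from 44.9 to 59.23 CPM with a median of 53.5. The KO groups therefore averaged close to WT, at 56.5 ± 16.2 CPM in KO against 54.1 ± 6.55 CPM in WT at 3 h. With all libraries its difference of 0.16 ± 0.18 did not pass (edgeR, adjusted p = 0.682). When the distant KO libraries were left out its sign turned and it was lower in KO by the test, at −0.39 ± 0.08 (edgeR, adjusted p = 0.0228).

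fbp1b (ENSDARG00000020364, chromosome 5, 35458190–35462126) averaged 19.7 ± 4.43, 22.4 ± 5.58 and 29.4 ± 14.04 CPM in KO under DMSO, at 3 h and at 24 h, and 15.5 ± 2.07, 16.8 ± 2.82 and 15.9 ± 5.68 CPM in WT. Its highest value was 48.0 CPM in KO replicate 2 at 24 h, and the distant KO libraries (21.7–48.0 CPM) overlapped with both the other KO libraries (14.3–25.1 CPM) and WT (10.5–23.8 CPM). Over both ML233 times it was higher in KO by 0.65 ± 0.20 on the log2 scale (edgeR, adjusted p = 0.049). The call was lost in 10 of 16 fits that left out 1 library (WT replicates 1, 3 and 4 at either time, KO replicates 3 and 4 at 3 h, KO replicates 2 and 4 at 24 h), and without the distant KO libraries the difference was 0.18 (edgeR, adjusted p = 0.604). With the principal components as covariates it was −0.10 and did not pass.

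Of the hormone genes, gcga, a glucagon precursor gene of the islet's alpha cells, differed most between the genotypes. gcga (ENSDARG00000079296, chromosome 22, 11617520–11626018) had 4.53, 24.3, 6.22 and 29.6 CPM in KO under DMSO, 8.22, 5.42, 25.7 and 25.6 CPM in KO at 3 h, and 8.73, 53.8, 5.21 and 36.1 CPM in KO at 24 h. In WT it had 3.70, 3.58, 3.57 and 4.01 CPM under DMSO, 3.27, 4.66, 4.01 and 4.61 CPM after 3 h, and 3.21, 3.73, 4.52 and 3.23 CPM after 24 h. Within each condition every KO library was above every WT library, and the KO libraries split by pairs as for pck1. In whole embryos more cells of a type and more RNA per cell cannot be told apart.

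The log2 difference of gcga was 1.97 ± 0.64 at 3 h (edgeR, adjusted p = 0.200) and 2.82 ± 0.66 at 24 h (edgeR, adjusted p = 0.0591). Over both times it was 2.39 ± 0.46 and passed (edgeR, adjusted p = 0.00411), and it passed in all 16 fits that left out 1 library, between 2.07 and 2.56. With the first 2 principal components as covariates it was 0.34 and did not pass (edgeR, adjusted p = 0.219). With library pairs as a term it was 2.02 ± 0.33 and passed (edgeR, adjusted p = 0.000371), and so it did at 24 h alone (2.39; edgeR, adjusted p = 0.00565). Without the distant KO libraries it was 0.81 ± 0.16 and passed (edgeR, adjusted p = 0.0189).

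ins (ENSDARG00000035350, chromosome 5, 37854685–37857696), the insulin gene, was counted only 16 to 59 times per library, and its precision is limited by that. It had 0.977–1.85 CPM in the distant KO libraries, 0.507–1.099 CPM in the other KO libraries and 0.769–1.43 CPM in WT, so all 3 ranges overlapped. Its difference over both ML233 times was 0.29 ± 0.26 with all libraries (edgeR, adjusted p = 0.579) and −0.26 without the distant KO libraries (edgeR, adjusted p = 0.538). Neither passed.

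**Figure D2:**
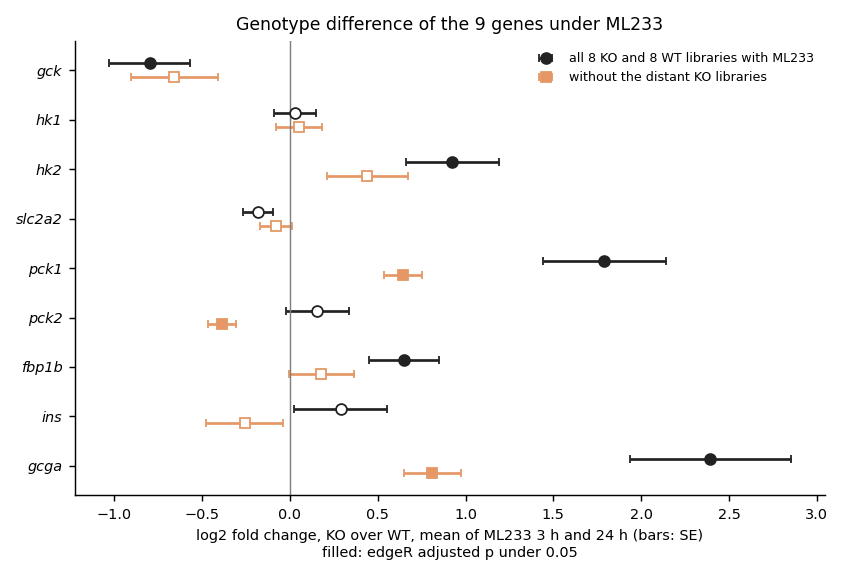
Log2 difference, KO over WT, averaged over 3 h and 24 h of ML233 for the 9 genes, with all libraries and without the 6 distant KO libraries. Bars are standard errors and filled points have an edgeR adjusted p under 0.05; gcga and pck1 are filled in both, at 2.39 and 0.81 and at 1.79 and 0.64, and pck2 is filled, on the low side, only without the distant libraries.

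Counted together over the mean of both ML233 times, 5 of the 9 genes passed the test, 4 higher in KO (gcga, pck1, hk2, fbp1b) and gck lower. These calls treat the libraries of both times as independent, which they are not fully. Of all tested genes 7.86% passed, 5.06% higher and 2.79% lower. At an unadjusted p under 0.05, 6 of the 9 genes and 22.9% of all tested genes passed. The median log2 difference was 0.29 over the 9 genes and −0.01 over all tested genes. At 3 h alone none of the 9 passed in edgeR, where 0.148% of all tested genes did (0.100% higher, 0.0481% lower). DESeq2 called 499 of all tested genes at 3 h, pck1 and gcga among them. At an unadjusted p under 0.05 in edgeR, 4 of the 9 passed at 3 h, against 3238 of all 27010 tested genes. At 24 h alone none passed in edgeR, where 0.459% of all tested genes did (0.370% higher, 0.0889% lower). DESeq2 called 750 of all tested genes at 24 h, again with pck1 and gcga among them. At an unadjusted p under 0.05 in edgeR, 4 of the 9 passed at 24 h, against 14.6% of all tested genes.

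By overlap of single libraries, pck1 and gcga lay wholly above WT at 3 h and again at 24 h, where 3.89% and 3.00% of tested genes did, and no member lay wholly below, where 2.93% and 2.87% did. Under DMSO, where the choice was made, gcga and pck1 lay wholly above WT (3.67% of tested genes) and gck wholly below (3.41%). The other log2 differences under DMSO were 2.12 for gcga, 1.82 for pck1, 1.16 for hk2, 0.35 for fbp1b, −0.17 for slc2a2, −0.21 for ins, and −0.02 for hk1 and for pck2. The 3 comparisons of KO with WT share no library, yet the pairs recur in all of them.

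Set by set, 4 of the 9 genes lay wholly above WT in the distant KO libraries (gcga, pck1, pck2 and hk2), where 8.91% of tested genes did and 5.58% lay wholly below. In the other KO libraries only pck1 did, where 0.674% of tested genes lay wholly above and 0.770% wholly below. The same 4 genes were wholly above the other KO libraries in the distant ones, where 16.3% of tested genes were and 16.4% were wholly below. As ratios of medians to WT, gcga was at 7.44 in the distant and 1.57 in the other KO libraries, pck1 at 5.61 and 1.48, and hk2 at 2.86 and 1.47. pck2 was at 1.34 and 0.746, ins at 1.48 and 0.685, and gck at 0.380 and 0.535. Against the WT pair that each set goes with, gck was at 0.446 in the distant and 0.421 in the other KO libraries, the opposite order, pck1 at 6.06 and 1.32, gcga at 6.90 and 1.60, and hk2 at 2.42 and 1.58.

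Summed levels of several marker lists differed between the KO sets. The summed level of the inflammation genes (15 rows, 14 tested), a list chosen earlier on these same libraries and so no independent evidence of its direction, was 905–1811 CPM in the distant KO libraries, 250–804 CPM in the other KO libraries and 114–186 CPM in WT. All 14 tested were higher in KO over both ML233 times, where 5.06% of all tested genes were. Their median was 3.88 against −0.01 for all tested genes. Without the distant libraries 9 were higher, where 382 of all tested genes passed in either direction. The summed level of 22 hepatocyte markers was 14299–19838 CPM in the distant KO libraries, 10517–11774 CPM in the others and 10303–12506 CPM in WT. Of these 22, 8 passed in either direction. Without the distant KO libraries 2 passed, where 382 of all tested genes did. With the first 2 principal components as covariates 0 passed, where 680 of all tested genes did. With all libraries 7 were higher in KO, where 5.06% of all tested genes were. Among the 7 were the complement gene c3a.1 (1.79), the heme-binding hpx (1.64) and the fibrinogen chain fgb (1.43). The tryptophan-degrading tdo2a (−0.64) was lower, where 2.79% of all tested genes were, and the median of the 22 was 0.21. hpx overlapped between the KO sets, at 17.0–57.8 CPM in the distant and 12.03–24.1 CPM in the other libraries. Its WT medians were 12.3 CPM in replicates 1 and 2 and 3.94 CPM in replicates 3 and 4. Against the matching WT pair, hpx was at 7.05 in the distant and 1.46 in the other KO libraries. The summed skeletal muscle markers were at 27226–37359 CPM in the distant KO libraries, 23399–25903 CPM in the other KO libraries and 24674–34638 CPM in WT, where replicates 3 and 4 had 28234–34638 CPM and replicates 1 and 2 had 24674–28316 CPM. The summed exocrine pancreas markers were at 5726–6904, 8458–12450 and 4686–13583 CPM in the distant KO, other KO and WT libraries, with 4686–7261 CPM in WT replicates 3 and 4 and 11293–13583 CPM in WT replicates 1 and 2. Their part in the differences of gck, pck1, hk2, fbp1b and gcga was not tested.

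Other gluconeogenesis enzymes were measured by 8 genes, of which 2 were higher in KO over both ML233 times and none lower, with a median of 0.07, where 5.06% of all tested genes were higher. g6pca.1, a glucose-6-phosphatase catalytic subunit gene that carries out the last step of glucose release, had 26.7–37.8 CPM in the distant KO libraries, 11.02–17.5 CPM in the other KO libraries and 7.98–16.2 CPM in WT. Its log2 difference was 1.12 (edgeR, adjusted p = 0.0171). Its paralog g6pca.2 differed by 0.50 (edgeR, adjusted p = 0.0287), a call lost in 9 of 16 fits that left out 1 library. None of the 8 passed without the distant KO libraries, where 382 of all tested genes did.

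Among 37 regulators of glucose use, 3 were higher in KO and 1 lower, with a median of 0.07, against 7.86% of all tested genes called. The count was 7 in DESeq2, with the replicate block and with library pairs as a term, and 3 to 7 with 1 library left out. With library pairs 5520 of all 27010 tested genes passed. igfbp1a and igfbp1b encode insulin-like growth factor binding proteins whose mammalian counterpart is raised in liver by fasting. igfbp1a had 185–234 CPM in the distant KO libraries, 36.8–65.9 CPM in the other KO libraries and 27.2–40.03 CPM in WT, a difference of 1.93 (edgeR, adjusted p = 0.0057), and igfbp1b differed by 2.31 (edgeR, adjusted p = 0.0084). Against the median of the matching WT pair, igfbp1b was at 17.5 in the distant and 1.34 in the other KO libraries. pfkfb3, whose enzyme makes the glycolysis activator fructose-2,6-bisphosphate, had 96.0–117.0 CPM in the distant KO libraries, 35.0–52.1 CPM in the others and 22.4–31.3 CPM in WT. Both KO sets thus lay above WT, as all KO libraries did for 0.378% of all tested genes. The difference of pfkfb3 was 1.40 (edgeR, adjusted p = 0.0038). The transcription factor gene foxo3a was lower by −0.22 (edgeR, adjusted p = 0.0285), a call lost in 7 of 16 fits that left out 1 library. Only 1 of the 37, higher in KO, passed without the distant KO libraries, where 382 of all tested genes did.

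Of 31 glycolysis enzymes tested, 1 was higher and 5 were lower in KO, with a median of −0.07 against −0.01 for all tested genes. Of all tested genes 5.06% were higher and 2.79% lower. Only 2 passed when only the compared groups were fitted, where 1103 of all tested genes did, and 2 to 7 with 1 library left out. pgam2, a phosphoglycerate mutase of muscle, had 76.3–103.7 CPM in KO and 112.2–161.8 CPM in WT, and gpib, a glucose-6-phosphate isomerase gene, had 49.8–64.9 CPM in KO and 68.4–84.8 CPM in WT. The ranges of neither gene overlapped between the genotypes, where 0.222% of all tested genes lay wholly below WT. Their differences were −0.52 and −0.38, and both passed (edgeR, adjusted p = 0.0007 and 0.0004). The lactate dehydrogenase genes went in opposite directions, ldhbb by 0.67 and ldha by −0.29 (edgeR, adjusted p = 0.0281 and 0.0338), each call lost in 7 of 16 fits that left out 1 library. With the distant KO libraries left out, 4 glycolysis genes were lower and none higher, where 382 of all tested genes passed in either direction.

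Of 16 glycogen enzymes 2 were lower in KO and none higher, with a median of −0.17. The lower genes were pygma, a muscle glycogen phosphorylase gene, by −0.49 and pgm1, a phosphoglucomutase gene, by −0.26 (edgeR, adjusted p = 0.002 and 0.014). Of 18 other glucose transporters, 2 were higher and 1 was lower, with a median of 0.07. For both lists, 5.06% of all tested genes were higher and 2.79% lower in the same comparison. With library pairs as a term 7 glycogen enzymes and 8 of these transporters passed, where 5520 of all 27010 tested genes did. slc2a6 had 1.203–5.67 CPM in KO and 0.544–1.15 CPM in WT, a difference of 2.001 (edgeR, adjusted p = 0.0018). slc2a3b, a GLUT3-type transporter gene, differed by 1.23 and slc37a4b (ENSDARG00000077180), a glucose-6-phosphate transporter gene, by −0.40 (edgeR, adjusted p = 0.0043 and 0.0165). The symbol slc37a4b matched more than 1 row, and no other row of it passed.

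The other islet genes did not rise as a list. Of 19 tested, 2 were higher and 2 lower in KO, with a median of −0.11, where 5.06% of all tested genes were higher and 2.79% lower. The count of 4 was 7 in DESeq2 and with library pairs as a term, 1 with only the compared groups and 1 to 7 with 1 library left out. Of all tested genes 5520 passed with library pairs and 1103 with only the compared groups. The summed level of the list (22 rows, mnx1 and kcnj11 at 0) was 584–613 CPM in the distant KO libraries, 571–613 CPM in the other KO libraries and 569–717 CPM in WT. The genes that were higher encode hormones. sst2, a somatostatin gene, had 9.18–17.0 CPM in the distant KO libraries, 1.90–2.26 CPM in the other KO libraries and 1.21–2.17 CPM in WT, a difference of 1.99 (edgeR, adjusted p = 0.0127). gcgb, the second glucagon precursor gene, had 20.4–37.7 CPM in the distant KO libraries, 4.15–5.94 CPM in the others and 3.99–6.62 CPM in WT, a difference of 1.58 (edgeR, adjusted p = 0.0327) whose call was lost in 11 of 16 fits that left out 1 library. The transcription factor genes isl1 and neurod1, which many neurons also express, were lower by −0.38 and −0.33 (edgeR, adjusted p = 0.0388 and 0.0227), and their calls were lost in 9 and 6 of those fits. Against the median of the matching WT pair, isl1 was at 0.618 in the distant and 0.966 in the other KO libraries. For neurod1 these ratios were 0.692 and 0.930. None of the 19 passed once the distant KO libraries were left out, where 382 of all tested genes did.

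**Figure D3:**
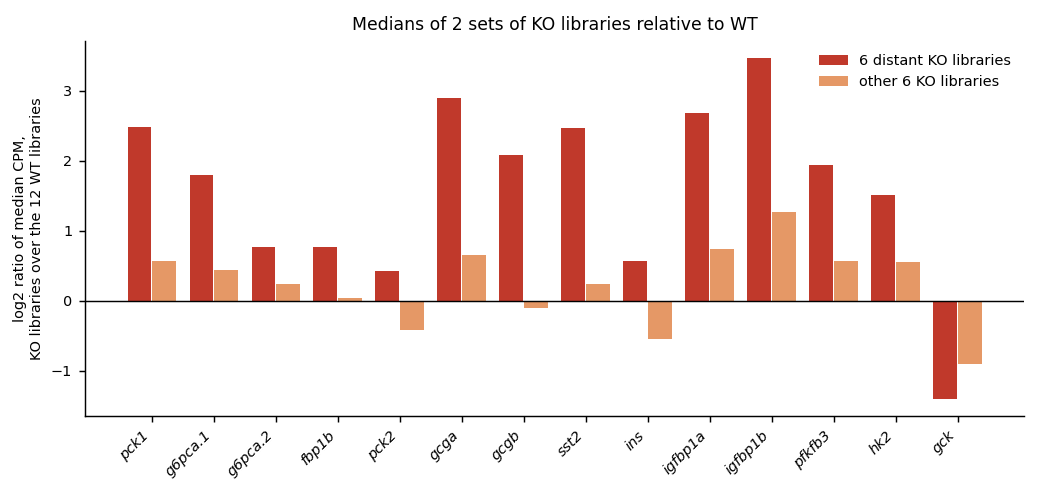
Log2 ratio of the median CPM in the 6 distant KO libraries (red bars) and in the other 6 KO libraries (orange bars) to the median of the 12 WT libraries, for gck, hk2, the gluconeogenesis and hormone genes and related genes from the lists. The tall bars of igfbp1b, gcga, igfbp1a, pck1 and sst2 belong to the distant libraries, and gck is below 0 in both sets, at ratios of 0.380 and 0.535.

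For the 8 members other than gck the response to ML233 was tested in each genotype, and none passed. In KO the 8 log2 changes from DMSO ran from −0.19 (pck1) to 0.45 (ins) at 3 h and from −0.11 (slc2a2) to 0.68 (gcga) at 24 h. In WT they ran from −0.04 (pck1) to 0.40 (hk2) at 3 h and from −0.24 (ins) to 0.10 (hk2) at 24 h. In edgeR none passed, where 0% of all tested genes passed in each of the 4 comparisons. None had an unadjusted p under 0.05, as 1.51% of all tested genes had in KO at 3 h, 2.82% in KO at 24 h, 1.68% in WT at 3 h and 0.929% in WT at 24 h. The smallest such p among the 8 was 0.0545, for fbp1b in KO at 24 h. With the replicate number as a block, which pairs the WT libraries, 3 genes passed in WT at 3 h, none of them among these 8. Fitted to WT replicates 1 and 2 alone, 299 genes passed at 3 h and 4 at 24 h, and to replicates 3 and 4 alone none, again with none of the 8 among them. The KO response less the WT response ran from −0.36 (hk2) to 0.33 (ins) at 3 h and from −0.13 (hk2) to 0.70 (gcga) at 24 h, again with none passing in edgeR, where 0% of all tested genes passed, and none at an unadjusted p under 0.05, as 0.929% and 1.14% of all tested genes had. DESeq2 called none of the 8 in these comparisons. With standard errors this wide, a p that misses the threshold does not show that ML233 left these genes alone.

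For gck the response to ML233 rests on the DMSO libraries that chose it, so it is described without a test. In KO its mean was 5.30 CPM under DMSO, 11.6 CPM after 3 h and 12.7 CPM after 24 h, log2 changes of 1.13 ± 0.33 and 1.26 ± 0.33 from DMSO. All 4 KO libraries at 24 h were above all 4 under DMSO, and at 3 h KO replicate 3, at 5.93 CPM, lay within the DMSO range. In WT the means were 16.7, 23.2 and 19.3 CPM, log2 changes of 0.48 and 0.20, with overlap at both times.

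Compared per kilobase of gene length, pck1 was the most abundant member in both genotypes and, by the median over the 12 libraries of a genotype, hk2 the least abundant. In KO under DMSO the mean level per kilobase was 211 ± 142 CPM for pck1, 15.7 ± 5.11 for pck2, 14.6 ± 0.396 for slc2a2, 12.2 ± 2.73 for fbp1b, 6.97 ± 5.46 for gcga, 3.71 ± 0.463 for hk1, 1.97 ± 1.17 for hk2, 1.93 ± 1.103 for ins and 1.78 ± 0.306 for gck. In WT under DMSO it was 59.5 ± 5.70 CPM for pck1, 16.5 ± 1.84 for slc2a2, 16.0 ± 0.660 for pck2, 9.54 ± 1.28 for fbp1b, 5.62 ± 2.47 for gck, 3.75 ± 0.581 for hk1, 2.22 ± 0.498 for ins, 1.60 ± 0.088 for gcga and 0.877 ± 0.287 for hk2. Neighbours in either order mostly overlapped between libraries, apart from pck1, which was above all others. In WT, pck2 and fbp1b, hk1 and ins, and gcga and hk2 did not overlap either.

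The genes whose level was most like that of gck over the 24 libraries, among 16734 genes with a symbol and a mean log2 CPM of at least 1, were zgc:153896 (Pearson's r = 0.866), srd5a2a (0.815), cyp3c4 (0.815), dhrs11b (0.800) and cndp2 (0.799). Within the 12 KO libraries these correlations were 0.787, 0.772, 0.642, 0.615 and 0.661, and within the 12 WT libraries 0.709, 0.466, 0.668, 0.439 and 0.645. Of the members, slc2a2 was most like gck over the 24 libraries (0.583), with 0.222 within KO and 0.634 within WT. Over the 24 libraries pck1 (−0.600), hk2 (−0.589) and gcga (−0.540) ran opposite to gck. Those values include the KO difference for which gck was chosen. Within KO and within WT they were −0.254 and 0.395 for pck1, −0.214 and −0.241 for hk2, and −0.109 and 0.106 for gcga. These values are a description: the points share genotype, pairs and library.

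gck lies on chromosome 8 near aplnra, 1 of the labelled targets, with 149 kb between the genes. Only genes with a symbol were considered here. Of those from aplnra to 100 kb beyond gck, aplnra was lower in KO over both ML233 times by −0.47 ± 0.09 (edgeR, adjusted p = 0.00311). Between them, tbc1d10aa (0.13; edgeR, adjusted p = 0.229) did not pass. Neither did myl7, a heart myosin light chain gene 11.9 kb from gck (−0.51; edgeR, adjusted p = 0.103), nor NPC1L1 on the far side (−0.06; edgeR, adjusted p = 0.89). myl7 had 12.8–19.2 CPM in the distant KO libraries, 25.0–31.4 CPM in the other KO libraries and 25.5–36.3 CPM in WT. izumo1 was below the filter. Whether the KO embryos carry other alleles around aplnra was not tested.

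**Figure D4:**
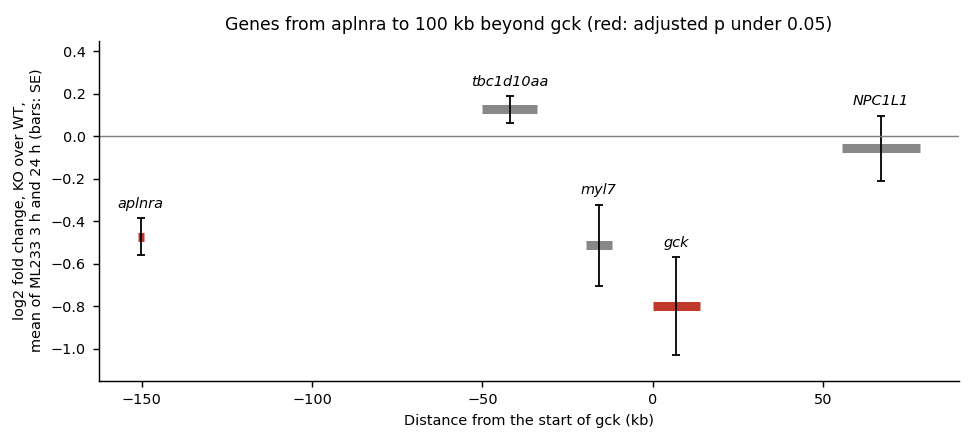
Log2 difference, KO over WT, averaged over 3 h and 24 h of ML233, of the tested genes with a symbol from aplnra to 100 kb beyond gck, by distance in kb from the start of gck. Thick segments span the genes, red where the edgeR adjusted p is under 0.05, and thin bars are standard errors; aplnra at −0.47 and gck at −0.80 are lower, and tbc1d10aa at 0.13 and myl7 at −0.51, which lie between them, did not pass the test.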

How the data were processed

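Whole-embryo poly(A) RNA was sequenced paired-end from 24 libraries. The deposited counts are whole numbers per gene; per the submitters' processing notes the tools were HISAT2 2.0.5, StringTie, featureCounts, R 4.3.2 and DESeq2 1.42.1 with GRCz11. The annotation release and strand setting of the counting are not given in the sources used here. Groups came from the labels. From the deposited counts, edgeR 4.0.16 (R 4.3.3, limma 3.58.1) kept 27010 genes (filterByExpr, minimum count 10), scaled totals by TMM (factors 0.833–1.08) and fitted quasi-likelihood models with 1 term per group to all 24 libraries, with two-sided tests and Benjamini-Hochberg adjustment over all tested genes. CPM uses the scaled totals. DESeq2 1.42.0 was an alternative. No replicate block was used: same-numbered WT libraries deviated together (r 0.318–0.546) and so count as paired; KO replicates 1 and 4 did too (0.516–0.623), but replicates 2 and 3 were negative against 3 h (down to −0.492), so KO numbers do not pair. Intervals and errors cover the spread between these libraries only. The fitting was tested on simulated data. The members and lists were chosen with earlier results of these data known. The genes named were all 9 members, the 5 most like gck in log2 CPM (prior count 2), up to 3 called genes per list and direction in the mean of both ML233 times, and the neighbours of gck.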

Additional observations from a re-analysis of the deposited data

How the results depend on the processing

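Over the mean of both ML233 times, 2122 genes passed with all libraries, 1103 when only the compared groups were fitted and 941–3253 when 1 library was left out. With the first 2 principal components as covariates 680 passed, with library pairs as a term 5520, and without the distant KO libraries 382 (both chosen after seeing the data). The members passing were 5, then 3 with only the compared groups, 2–5 with 1 library left out, 1 with the components, 6 with library pairs and 3 without the distant libraries. With the components as covariates pck2 was −0.51, fbp1b −0.10, ins −0.33, ldhbb −0.055, g6pca.1 −0.20, slc37a4b 0.032, igfbp1b −0.20, sst2 −0.24, gcgb −0.52, isl1 0.10, neurod1 0.020, c3a.1 −0.015 and fgb −0.13, all of opposite sign to the values given above; pck1 was then 0.05, gcga 0.34 and gck −0.87, none of which passed. The components were computed from these same libraries and partly separate the genotypes, so that fit can take away the KO difference itself. The cause of the changed signs was not tested. Without the distant KO libraries pck2 (−0.39), ins (−0.26) and gcgb (−0.070) changed sign, and hk1 ranged from −0.013 to 0.12 with 1 library left out.

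Calls under DMSO numbered 40, and 394 in DESeq2, 188 with the components, 813 with library pairs, 0 with only the compared groups and 0–82 with 1 library left out. At 3 h they numbered 40, and 499, 117, 841, 0, 0–154 and, without the distant libraries, 8. At 24 h they numbered 124, and 750, 352, 1821, 1, 0–796 and 61. Members passing were 2 in DESeq2 and 1 with the components at each time, 1 at 3 h and 3 at 24 h with library pairs, and 0–2 at 24 h with 1 library left out. ML233 comparisons gave 0 calls except for WT at 3 h (2 in DESeq2, 299 from replicates 1 and 2 alone), WT at 24 h (4 from replicates 1 and 2 alone), KO at 24 h (1 with the components) and the difference of responses at 3 h (1 in DESeq2, 0–1 with 1 library left out). With the replicate number as a block, WT at 3 h gave 3 calls, called regulators went to 7 from 4 and enterocyte markers to 2 from 1, and no other count moved by over 1.5 times. RLE scaling ended the call of gck under DMSO (adjusted p = 0.0516), which leaving out any 1 library also did, and no other call of a gene named here. CPM with unscaled totals moved no member's group mean by more than its SD. Without the filter fbp1b no longer passed (adjusted p = 0.0565).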

Other observations

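Lists of markers of other organs were counted over the mean of both ML233 times, where 7.86% of all tested genes were called. Of 18 exocrine pancreas markers 1 was higher and 1 lower in KO (median log2 difference −0.12), of 12 enterocyte markers none was higher and 1 was lower (−0.08), of 10 kidney tubule markers 1 was higher and 1 lower (0.04), and of 11 skeletal muscle markers none was higher and 2 were lower (−0.01). With library pairs as a term the called genes numbered 8, 3, 3 and 3 in these lists, where 5520 of all 27010 tested genes passed. The summed level of the enterocyte markers was 2545–3644 CPM in the distant KO libraries, 2539–3160 CPM in the other KO libraries and 2220–3259 CPM in WT. That of the kidney tubule markers was 468–517, 468–515 and 486–541 CPM in the same order. The 3 tested apelin pathway genes were all lower in KO, with a median of −0.47; apela had no counts in any library.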
